A study of Homo sapiens with 12 samples.

Results

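The transcripts of 36 genes of the ATF4 response were followed in H9 cells, an established line of human embryonic stem cells, on their way to hepatocytes. The genes were listed by Entrez number as known targets or partners of the transcription factor ATF4. They were chosen with earlier results of these data known. All 36 of them were found among the 23922 genes of the deposited tables. RNA was sequenced from 12 libraries in 6 groups of 2. At day 7 of differentiation, when the labels call the cells hepatoblasts, and at day 19, when they are called hepatocytes, cells had received either 0.1% DMSO as the control, 30 nM T3 (triiodothyronine) or 30 nM T4 (thyroxine). The vehicle of the hormone groups, the time of hormone addition and the genotype beyond the line itself are not in the labels. Nor do the labels tell whether the 2 libraries of a group stem from independent cultures. The p-values therefore reflect variation between libraries only, possibly of technical origin.

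ATF4 is the central effector of the integrated stress response. Kinases that sense unfolded protein, missing amino acids, missing haem or viral RNA phosphorylate the initiation factor eIF2, which slows protein synthesis in general but raises translation of the ATF4 message. ATF4 protein then pairs with other bZIP factors, binds C/EBP-ATF response elements and switches on genes for amino acid synthesis and uptake, one-carbon metabolism, tRNA charging and, when stress lasts, growth arrest and cell death. Liver cells carry a heavy secretory and amino acid load and use the same program. T3 is the form that binds the nuclear thyroid hormone receptors most tightly; T4 carries an additional iodine and is the circulating precursor from which T3 is made.

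Promoters of the members were searched for the element that ATF4 dimers bind. In RefSeq promoters of GRCh38.p14, taken from 250 bases before to 50 after each transcription start, the core of the C/EBP-ATF response element (TGATGNAA, searched on both strands) was present in 9 of the 27 members with a promoter in the table (33.3%), against 3.49% of 17241 genes of the files that had one. All 42 starts of these members were searched, 1.56 per gene against 1.38 per gene over the files, and a gene with more starts has more chances of a match. With the first listed start of each gene alone, which was the first search made, the counts were 5 of 27 (18.5%) against 2.49%; the search over all starts was chosen after that result was seen. The cAMP response element TGACGTCA was found in 1 member (3.70% against 2.99%), PPP1R15A, and the hexamer AGGTCA, a half-site for nuclear receptors, in 6 members (22.2% against 15.4%). A match describes these letters and is no evidence of binding. The members were listed as known targets or partners of ATF4. A higher share of its element may follow from that choice and is no independent result. The 9 members with no promoter in the table were EIF4EBP1, GADD45A, NUPR1, SHMT2, ALDH1L2, PSPH, GPT2, SLC7A11 and PYCR1.

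The 7 windows below are shown because they hold the element and belong to members that responded very differently, from CHAC1, ATF3 and ASNS, which rose more than 2-fold with T3 at day 19, to SLC7A1 and JDP2, which barely moved. Each is read 5′ to 3′ on the strand of the gene, and capitals mark the element, which appears as TTGCATCA where the match is on the opposite strand.
CHAC1: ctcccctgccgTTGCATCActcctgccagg
ATF3: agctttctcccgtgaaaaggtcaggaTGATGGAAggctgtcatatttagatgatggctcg
ASNS: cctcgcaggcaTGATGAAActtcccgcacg
SLC1A4: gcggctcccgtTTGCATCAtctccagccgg
CEBPG: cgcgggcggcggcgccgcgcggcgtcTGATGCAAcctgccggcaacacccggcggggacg
JDP2: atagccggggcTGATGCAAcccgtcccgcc
SLC7A1: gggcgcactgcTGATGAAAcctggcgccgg
The windows lie at chr15:40953251-40953280 (CHAC1, plus strand), chr1:212565190-212565249 (ATF3, plus), chr7:97872458-97872487 (ASNS, minus), chr2:64989381-64989410 (SLC1A4, plus), chr19:33374045-33374104 (CEBPG, plus), chr14:75427995-75428024 (JDP2, plus) and chr13:29595663-29595692 (SLC7A1, minus). The element began 209, 191, 68, 7, 42 and 16 bases before the start in the first 6 of these, in that order, and 7 bases after the start in SLC7A1. The windows of CHAC1, ASNS, SLC1A4 and SLC7A1 touched an annotated exon of their gene, and those of ATF3, CEBPG and JDP2 lay outside the exons of their gene.

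Each library held 18363549 to 19306181 counts. The members took 0.259% to 0.269% of all counts at day 7 in every treatment, 0.246% to 0.248% at day 19 in DMSO, 0.436% to 0.468% at day 19 with T3 and 0.373% to 0.386% at day 19 with T4. Levels are given below as CPM (counts scaled to library size, with TMM factors, as edgeR's cpm gives them) in replicate 1 and replicate 2, differences as log2 fold changes with their standard error, and a gene is called changed at an adjusted p of at most 0.05 in edgeR's quasi-likelihood test, with Benjamini-Hochberg adjustment over 18101 tested genes. Of the 36 members, 35 passed the filter on low counts and were tested; FGF21 did not. The 9 hepatocyte markers summed to 64180 to 67900 CPM at day 19 in DMSO, 2874 to 3853 CPM with T3 and 7396 to 8301 CPM with T4, and all 9 were called lower with either hormone. AFP, the fetal liver marker, made up 32930 and 35470 CPM of the DMSO sums, whereas ALB, the defining gene of mature hepatocytes, had 17.8 and 20.8 CPM. Mesenchymal and stellate markers went from 6476 to 6715 CPM in DMSO to 2587 to 3423 with T3 and 3516 to 3914 with T4 (6 and 5 of 8 called lower, 2 and 2 higher). Intestinal markers went from 1981 to 2143 CPM to 412 to 495 and 783 to 1006 (5 and 5 of 6 called lower, 1 and 1 higher). LCT, an intestinal gene, had 1538 and 1379 CPM in the DMSO libraries. The part of these markers in the changes described here was not tested, and in bulk RNA fewer cells of a type and less RNA per cell cannot be told apart.

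**Figure D1:**
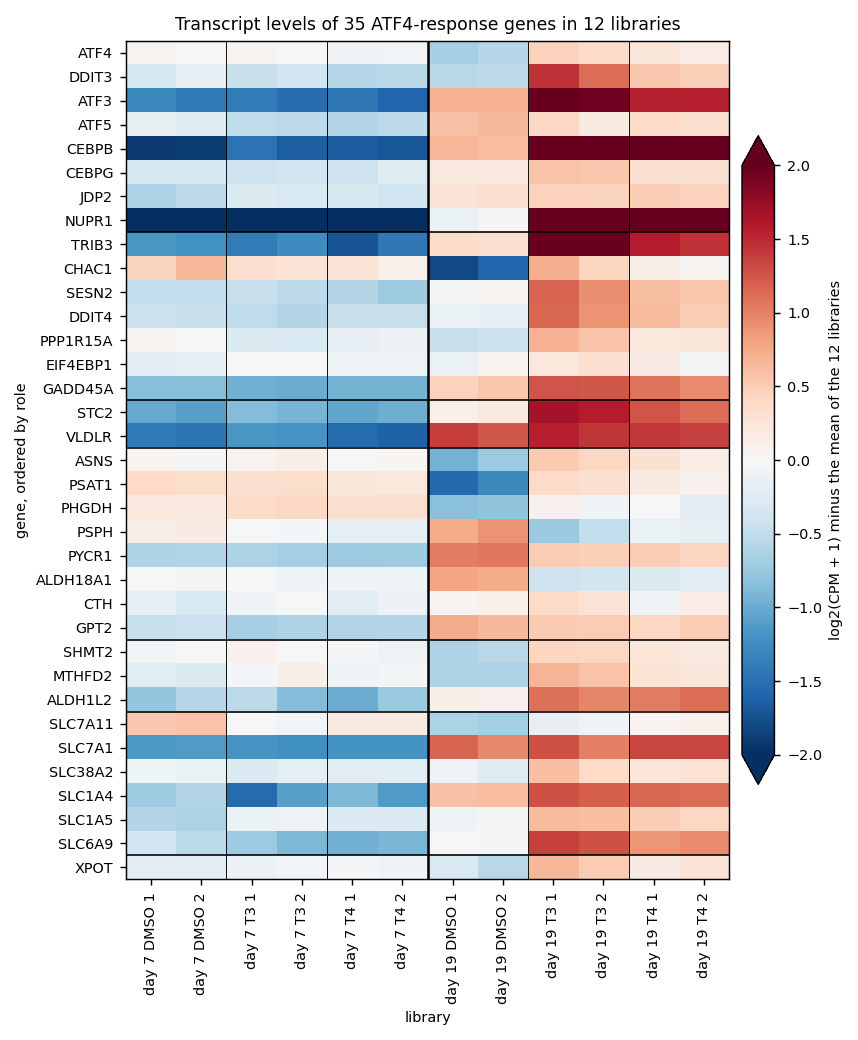
Level of each of the 35 tested members (vertical axis, ordered by role, black lines between roles) in each of the 12 libraries (horizontal axis), coloured by log2(CPM + 1) minus the mean of the gene over the 12 libraries; colours end at 2 in either direction. Most genes are at their highest in the day 19 T3 columns and next highest with T4, while PSPH, PYCR1 and ALDH18A1 are highest in the day 19 DMSO columns.

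At day 19, ATF4-response genes were higher with either hormone as a group, with 28 of the 35 tested called higher and 5 lower with T3. Among all tested genes 25.1% were called higher and 27.3% lower in that comparison. With T4, 26 members were called higher and 5 lower, against 21% and 21.9% of all genes. The median member differed by 1.02 (log2) with T3 and by 0.69 with T4, beside medians over all tested genes of -0.03 and 0.00. At least a 2-fold rise was seen for 18 members with T3 and for 9 with T4, beside 6.6% and 4.16% of all tested genes. Both comparisons use the same DMSO libraries. Because the members were chosen with earlier results of these data known, the shares here and below describe them and are no independent test. The 5 members called lower were the same in both: PSPH, PYCR1, ALDH18A1, GPT2 and ATF5.

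Of the 8 transcription factors, 7 were called higher and 1 lower with T3, and 6 and 1 with T4. ATF4 itself (chr22:39520559-39522686) had 190 and 204 CPM in DMSO at day 19, 417 and 397 with T3 and 360 and 337 with T4. All 4 hormone libraries lay above both controls, and both T3 libraries above both T4 libraries. Such separation is given here and below as description, and its share over all tested genes was not counted. ATF4 rose by 1.05 ± 0.06 with T3 (edgeR adjusted p = 1.42e-09), a 2.07-fold difference, and by 0.82 ± 0.06 with T4 (adjusted p = 3.63e-08).

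NUPR1, a small chromatin-associated stress protein, gave the greatest fold of any member. It had 7.33 and 8.20 CPM in DMSO, 322 and 318 with T3 and 139 and 124 with T4 at day 19. The 3 groups did not overlap, and the rise was 5.36 ± 0.11 with T3 (edgeR adjusted p = 2.06e-13) and 4.08 ± 0.11 with T4 (adjusted p = 7.42e-12). At day 7 NUPR1 was at the limit of detection, with 0 to 6 counts per library in the 6 libraries.

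DDIT3 encodes CHOP, the factor that links lasting stress to cell death. Its levels at day 19 were 16.1 and 16.5 CPM in DMSO, 67.4 and 53.4 with T3 and 35.5 and 33.99 with T4, so the 3 groups did not overlap. The changes were 1.89 ± 0.11 with T3 (edgeR adjusted p = 1.71e-09) and 1.09 ± 0.11 with T4 (adjusted p = 1.55e-06). DDIT3 shares 62 bases of exon with MARS, now MARS1, on the opposite strand, and since the strand of counting is not given, reads from the shared stretch could not be told apart. CEBPB, a bZIP partner of ATF4 and itself a liver regulator, had 136 and 132 CPM in DMSO, 535 and 431 with T3 and 369 and 345 with T4. It rose by 1.85 ± 0.09 and 1.42 ± 0.09 (edgeR adjusted p = 2.25e-10 and 7.57e-09). ATF3, an early stress-induced factor that feeds back on the program, stood at 78.1 and 78.1 CPM in DMSO, 229 and 187 with T3 and 141 and 143 with T4, again without overlap, and rose by 1.41 ± 0.08 and 0.86 ± 0.08 (edgeR adjusted p = 3.17e-09 and 1.18e-06).

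The other 3 factors moved little. CEBPG, the dimerisation partner that helps ATF4 bind amino acid response elements, rose by 0.36 ± 0.06 with T3. Its T4 value of 0.12 ± 0.06 did not pass (edgeR adjusted p = 0.137). In limma on log2(FPKM + 0.1) the T4 value was called higher (0.25, adjusted p = 0.00487), beside a median over all genes of 0.12. JDP2, a repressor that competes at the same sites, was called higher by only 0.16 and 0.18; without day 19 DMSO replicate 1 the adjusted p became 0.181 with T3 and 0.136 with T4. ATF5, a close relative of ATF4, was called lower by -0.31 ± 0.08 with T3 and -0.26 ± 0.08 with T4, and these calls ended without day 19 T3 replicate 2 (adjusted p = 0.0548) and without day 19 DMSO replicate 2 (T4, adjusted p = 0.0757) or day 19 T4 replicate 2 (T4, adjusted p = 0.0793). With limma on log2(FPKM + 0.1) the T4 value of ATF5 was -0.10 (adjusted p = 0.314).

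**Figure D2:**
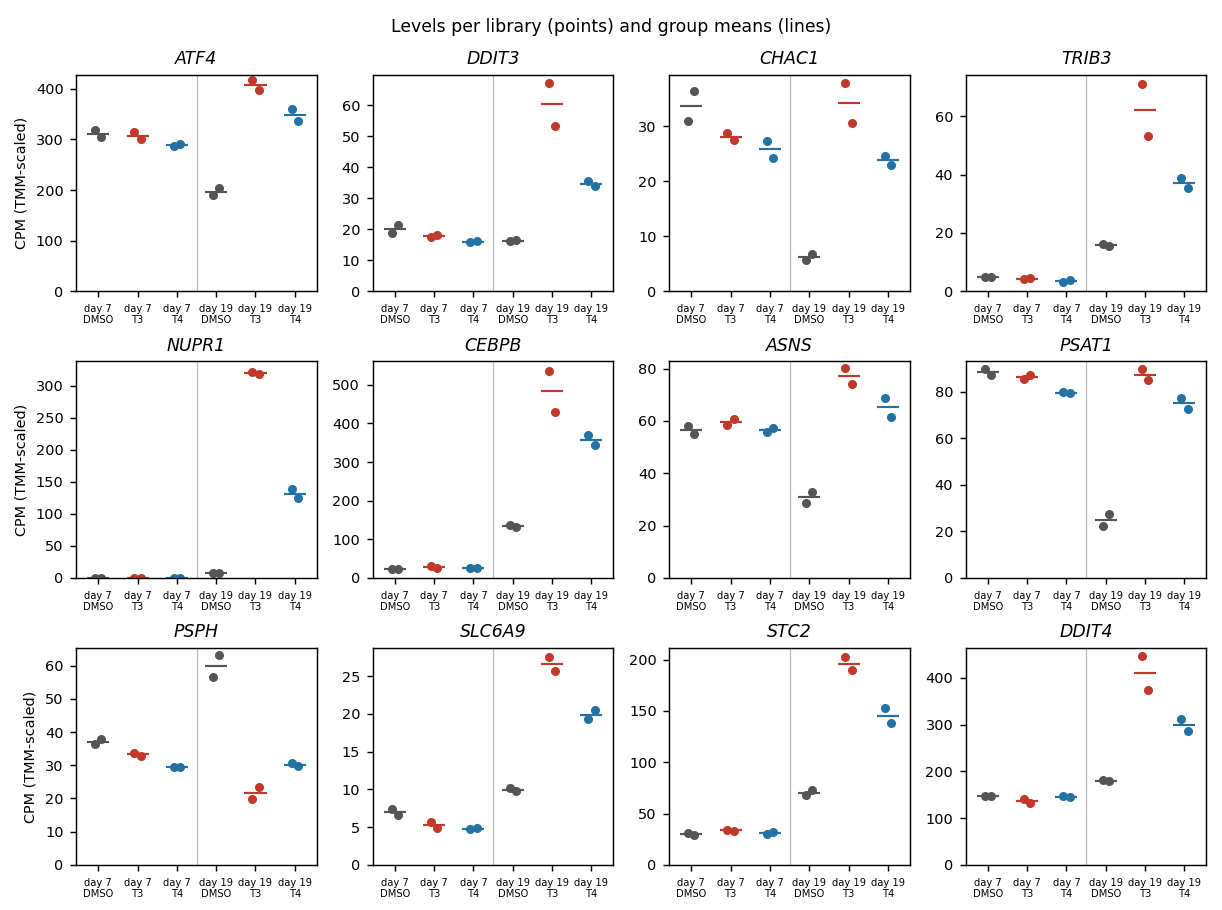
CPM in each library (points) with the group mean (line) for 12 members at day 7 (left of the grey line) and day 19 (right of it); vertical axes start at 0. ATF4, CHAC1, ASNS and PSAT1 are low in day 19 DMSO and stand near or above their day 7 level in the day 19 hormone libraries, whereas PSPH is high in day 19 DMSO and lower with hormone.

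All 7 genes of feedback, growth arrest and stress were called higher with T3 and 6 with T4. CHAC1, which breaks down glutathione, had 5.69 and 6.80 CPM in DMSO at day 19, 37.8 and 30.5 with T3 and 24.6 and 23.0 with T4. No hormone library overlapped a control, and CHAC1 rose by 2.45 ± 0.14 with T3 (edgeR adjusted p = 1.79e-09) and 1.93 ± 0.14 with T4 (adjusted p = 6.52e-08). TRIB3, a pseudokinase that restrains ATF4 and CHOP, had 16.2 and 15.6 CPM in DMSO, 71.0 and 53.4 with T3 and 38.7 and 35.4 with T4. The groups were apart, and the rises were 1.97 ± 0.12 and 1.22 ± 0.13 (edgeR adjusted p = 6.05e-09 and 2.34e-06).

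DDIT4, an inhibitor of mTORC1 signalling, was at 182 and 178 CPM in DMSO, 447 and 374 with T3 and 313 and 287 with T4. Its rises were 1.19 ± 0.07 and 0.73 ± 0.07 (edgeR adjusted p = 5.58e-09 and 1.63e-06). PPP1R15A encodes GADD34, which recruits a phosphatase to eIF2 and so ends the response. It had 54.5 and 55.5 CPM in DMSO, 123 and 113 with T3 and 87.5 and 89.3 with T4, without overlap between the groups, and rose by 1.10 ± 0.06 and 0.69 ± 0.06 (edgeR adjusted p = 9.37e-10 and 3.14e-07). SESN2, a leucine sensor that also holds mTORC1 in check, rose by 1.05 and 0.58, and GADD45A, a growth arrest gene, by 0.75 and 0.52. EIF4EBP1, the brake on cap-dependent translation, rose by 0.33 ± 0.07 with T3, while its T4 value of 0.12 ± 0.07 did not pass (edgeR adjusted p = 0.225). In limma on log2(FPKM + 0.1) that T4 value was called higher (0.25, adjusted p = 0.0185), beside a median over all genes of 0.12.

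Of the secreted and surface proteins, STC2, a stanniocalcin released by stressed cells, had 67.7 and 72.6 CPM in DMSO, 202 and 190 with T3 and 152 and 138 with T4. All 4 hormone libraries were above the controls, with rises of 1.48 ± 0.07 and 1.05 ± 0.07 (edgeR adjusted p = 1.5e-10 and 1.19e-08). VLDLR, the receptor for very low density lipoprotein, had 60.1 and 54.5 CPM in DMSO, 67.4 and 61.7 with T3 and 61.1 and 59.1 with T4. Its T3 call of 0.17 ± 0.07 was lost without day 19 DMSO replicate 2 (edgeR adjusted p = 0.305) or day 19 T3 replicate 1 (adjusted p = 0.289), and its T4 value of 0.07 did not pass. FGF21, a liver hormone of the fasting and stress response, had 1 and 0 counts in DMSO, 5 and 4 with T3 and 4 and 3 with T4 at day 19. These counts are too few for a test, and at day 7 it had 0 to 7 counts per library.

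Genes of amino acid synthesis split into 3 called higher and 4 called lower with each hormone. Among those called higher, PSAT1, the aminotransferase of serine synthesis, had 22.4 and 27.3 CPM in DMSO, 89.6 and 84.9 with T3 and 77.5 and 72.8 with T4. Hormone libraries were all well above the controls, and PSAT1 rose by 1.81 ± 0.08 and 1.59 ± 0.08 (edgeR adjusted p = 1.35e-10 and 1.24e-09). ASNS, which makes asparagine and is the classic amino acid response gene, had 28.5 and 33.0 CPM in DMSO, 80.2 and 74.2 with T3 and 68.9 and 61.7 with T4. It rose by 1.33 ± 0.08 and 1.08 ± 0.08 (edgeR adjusted p = 4.38e-09 and 7.69e-08). PHGDH, the first enzyme of serine synthesis, rose by 0.83 ± 0.07 and 0.71 ± 0.07.

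PSPH, the last enzyme of the same serine pathway, went the other way. It had 56.5 and 63.1 CPM in DMSO, 19.7 and 23.5 with T3 and 30.7 and 29.8 with T4. No hormone library reached the control level, and PSPH changed by -1.47 ± 0.08 with T3 (edgeR adjusted p = 1.93e-09) and -0.98 ± 0.08 with T4 (adjusted p = 1.63e-07). ALDH18A1, which starts proline synthesis from glutamate, had 289 and 279 CPM in DMSO, 124 and 128 with T3 and 135 and 142 with T4. Its changes of -1.17 ± 0.05 and -1.03 ± 0.05 (edgeR adjusted p = 2.2e-10 and 1.75e-09) were shared by PYCR1, the enzyme that completes proline, at -0.56 ± 0.05 and -0.58 ± 0.05. GPT2, a mitochondrial alanine aminotransferase, was called lower by -0.19 with T3 and -0.24 with T4, but not with limma on log2(FPKM + 0.1) (adjusted p = 0.105 and 0.114) and, for T3, not without day 19 DMSO replicate 1 (edgeR adjusted p = 0.087). CTH, which makes cysteine, had values of 0.26 (T3) and -0.04 (T4) that did not pass in the main fit. Its T3 value was called higher with edgeR's RLE size factors (0.30, adjusted p = 0.032). It was also called with limma on log2(FPKM + 0.1) (0.33, adjusted p = 0.0144).

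All 3 mitochondrial one-carbon enzymes rose with both hormones. MTHFD2, a folate enzyme active in growing and stressed cells, had 36.4 and 36.5 CPM in DMSO, 90.7 and 84.2 with T3 and 68.7 and 66.1 with T4. SHMT2, which takes a one-carbon unit from serine, had 72.7 and 76.1 CPM in DMSO, 152 and 150 with T3 and 133 and 128 with T4. The groups of these 2 genes did not overlap. MTHFD2 rose by 1.26 ± 0.07 and 0.89 ± 0.07 and SHMT2 by 1.02 ± 0.06 and 0.81 ± 0.06 (edgeR adjusted p = 1.45e-09, 1.38e-07, 1.72e-09 and 4.15e-08). ALDH1L2, which oxidises formyl folate, was scarcer, at 4.54 and 4.43 CPM in DMSO, 9.94 and 9.02 with T3 and 9.53 and 10.1 with T4. Here T3 and T4 libraries overlapped, with rises of 1.08 ± 0.17 and 1.13 ± 0.17; on the log2(FPKM + 1) scale, which compresses low genes, these were 0.49 and 0.55.

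Of the 6 amino acid transporters 5 were called higher with T3 and all 6 with T4. SLC6A9, a glycine carrier, had 10.1 and 9.84 CPM in DMSO, 27.5 and 25.7 with T3 and 19.4 and 20.5 with T4. The 3 groups were apart, with rises of 1.42 ± 0.10 and 0.996 ± 0.10 (edgeR adjusted p = 2.74e-08 and 2.48e-06). SLC7A11, the cystine importer, had 13.8 and 13.3 CPM in DMSO, 19.4 and 20.7 with T3 and 22.8 and 23.3 with T4. Its T4 libraries were the highest of the day, and it rose by 0.57 ± 0.08 with T3 and 0.76 ± 0.08 with T4, and the difference between the hormones, 0.20 with a 95% interval of 0.04 to 0.36, did not pass (edgeR adjusted p = 0.09). The neutral amino acid carriers also rose. SLC1A5 had 145 and 149 CPM in DMSO, 240 and 234 with T3 and 216 and 206 with T4, SLC38A2 had 194 and 173, 315 and 272, and 245 and 252 CPM, and SLC1A4 had 13.0 and 13.3, 21.6 and 20.4, and 19.7 and 19.2 CPM. Hormone libraries lay above the controls in all 3 genes, and the rises were 0.69, 0.68 and 0.67 with T3 and 0.52, 0.44 and 0.56 with T4. SLC7A1, a cationic amino acid carrier, had a T3 value of 0.08 (edgeR adjusted p = 0.417) and was called higher by 0.27 with T4, a call lost without day 19 DMSO replicate 2 (adjusted p = 0.158), without either T4 library (0.0648 and 0.0637) and when the day 19 libraries were fitted on their own (0.0631). XPOT, the exporter of tRNA from the nucleus, had 96.3 and 81.1 CPM in DMSO, 189 and 170 with T3 and 134 and 143 with T4, and rose by 1.02 ± 0.08 and 0.64 ± 0.08.

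**Figure D3:**
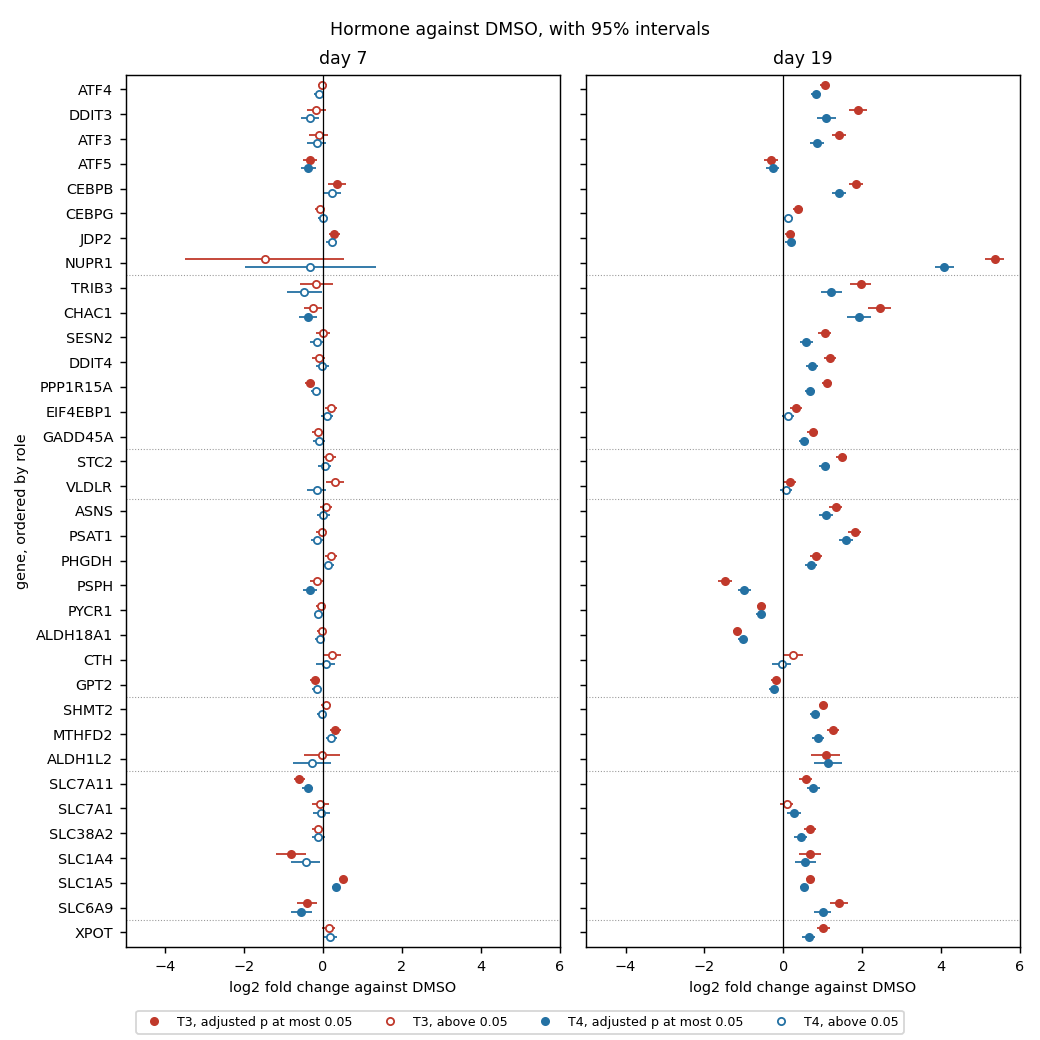
Log2 fold change against DMSO of the same day (horizontal axis) with its 95% interval for each tested member (vertical axis, dotted lines between roles), for T3 (red) and T4 (blue), at day 7 on the left and day 19 on the right; filled points passed an adjusted p of 0.05. At day 7 the called values run from -0.82 (SLC1A4, T3) to 0.50 (SLC1A5, T3) and NUPR1 has wide intervals, while at day 19 most points are to the right of 0 with T3 further out than T4.

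T3 and T4 were given at the same dose, so their readouts can be set against each other directly. At day 19 T4 was below T3 for 20 of the 35 members and above it for 1, PSPH, against 8.31% of all tested genes lower and 7.42% higher. All 35 pairs of values were adjusted within the test over all genes. The widest gap was in NUPR1, at -1.28 ± 0.08 with a 95% interval of -1.46 to -1.11 (edgeR adjusted p = 3.9e-07), although limma on log2(FPKM + 0.1) gave an adjusted p of 0.125 for nearly the same value of -1.23. DDIT3 followed at -0.80 ± 0.10, TRIB3 at -0.75 ± 0.11 and ATF3 at -0.55 ± 0.08 (edgeR adjusted p = 9.45e-05, 0.000478 and 0.000372). PSPH was higher with T4 than with T3 by 0.48 ± 0.09 (adjusted p = 0.0019).

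The gap was narrower for ATF4 itself, at -0.23 ± 0.06 (edgeR adjusted p = 0.0143), and that call did not last without day 19 T3 replicate 1 (adjusted p = 0.092) or day 19 T4 replicate 2 (0.102), nor when the day 19 libraries were fitted on their own (0.0908). T3 replicate 1 was the higher of its pair for DDIT3, TRIB3, ATF3, CEBPB and DDIT4, among others; without it 13 members were called, 11 lower and 2 higher, instead of 21. CHAC1 (-0.52), CEBPG (-0.25), GADD45A (-0.23), ASNS (-0.24), SHMT2 (-0.21), SLC38A2 (-0.24), SLC1A5 (-0.17) and SLC6A9 (-0.42) were, beside ATF4, the calls lost without that library, with adjusted p from 0.0597 to 0.325. CEBPB stayed lower without it, but its gap went from -0.43 to -0.27. Members with no call between the hormones include PYCR1, with an interval of -0.13 to 0.09, ALDH1L2, with -0.28 to 0.38, and PHGDH, with -0.27 to 0.02; these intervals bound the difference and do not show that both hormones act alike.

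At day 7 the members called with T3 went both ways, and those called with T4 in the main fit were mostly lower. With T3, 4 members were called higher and 6 lower, where 9.43% and 6.54% of all tested genes were called. With T4, 1 was called higher and 5 lower, against 3.9% and 2.52%, and at an unadjusted p of at most 0.05 edgeR had 4 higher and 12 lower. The median member differed by -0.05 with T3 and by -0.12 with T4, beside 0.01 over all genes in each. No member differed between T4 and T3 at day 7 in edgeR (0 of 35, with 5 at an unadjusted p of at most 0.05) or in DESeq2 (0), against 0.365% of all genes called in either direction. Markers of pluripotent cells summed to 1664 to 1682 CPM in DMSO, 3073 to 3103 with T3 and 2538 to 2570 with T4 at day 7, with 7 of 8 called higher with each hormone. Dividing-cell markers were called higher for 6 and 5 of 7 (T3 and T4), and endothelial markers lower for 5 and 5 of 6, definitive endoderm for 5 and 4 of 7 and hepatocyte markers for 6 and 4 of 9. The part of these markers in the day 7 values was not tested.

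ATF4, DDIT3, TRIB3 and ASNS did not pass with either hormone at day 7 in the main fit. ATF4 had 318 and 306 CPM in DMSO, 314 and 302 with T3 and 287 and 291 with T4, with a T3 value of -0.02 and an interval of -0.14 to 0.10. DDIT3 was at 18.7 and 21.5, 17.5 and 18.3, and 15.9 and 16.0 CPM in the same order, TRIB3 at 4.96 and 4.76, 4.07 and 4.55, and 3.05 and 3.95 CPM, and ASNS at 58.1 and 54.9, 58.4 and 60.8, and 55.8 and 57.5 CPM. T3 and DMSO libraries overlapped for ATF4 but not for DDIT3, TRIB3 and ASNS, whose T3 values of -0.17, -0.17 and 0.08 were small and did not pass. The T4 values were -0.11 for ATF4, -0.33 for DDIT3, -0.47 for TRIB3 and 0.003 for ASNS. Both T4 libraries lay below both controls for ATF4, DDIT3 and TRIB3, but not for ASNS. When the day 7 libraries were fitted on their own, ATF4 and DDIT3 were called lower with T4 (edgeR adjusted p = 0.0227 and 0.00812).

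Of the 10 members called with T3 at day 7, 4 were transporters (1 higher and 3 lower), as were 3 of the 6 called with T4 (1 higher and 2 lower). Transporters made up 6 of the 35 tested members. Over all tested genes, 16% were called with T3 and 6.42% with T4. SLC1A5, a glutamine carrier, had 102 and 99.0 CPM in DMSO, 142 and 143 with T3 and 126 and 126 with T4. It rose by 0.50 ± 0.05 and 0.33 ± 0.05 (edgeR adjusted p = 1.48e-05 and 0.0017), and both calls were kept in every alternative run. SLC7A11 had 32.2 and 32.9 CPM in DMSO, 21.9 and 21.1 with T3 and 24.8 and 24.9 with T4, and was lower by -0.60 ± 0.07 with T3 and -0.39 ± 0.07 with T4; the T4 call was lost without day 7 DMSO replicate 2 (edgeR adjusted p = 0.0512). Its direction at day 7 was thus opposite to that at day 19. PPP1R15A had 78.2 and 75.8 CPM in DMSO and 61.4 and 61.2 with T3, a change of -0.33 ± 0.06 (edgeR adjusted p = 0.0014) that was kept in every alternative.

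The other day 7 calls were each lost in at least 1 run that left out a library. Such a run also has fewer libraries to estimate the spread, so a lost call need not stem from that library. CEBPB with T3, for example, kept its size without day 7 DMSO replicate 1 (0.36) or 2 (0.37). Its size did vary with the T3 libraries, at 0.28 without day 7 T3 replicate 1 and 0.45 without replicate 2. Among the higher, CEBPB had 22.1 and 22.2 CPM in DMSO and 30.1 and 26.8 with T3 (0.36), JDP2 26.5 and 28.04 against 33.8 and 32.8 (0.29), and MTHFD2 48.6 and 45.9 against 55.8 and 61.7 (0.31). Among the lower, ATF5 had 26.5 and 24.6 CPM in DMSO and 20.4 and 20.1 with T3 (-0.33), GPT2 92.2 and 94.7 against 80.4 and 82.6 (-0.20), and SLC6A9 7.46 and 6.64 against 5.68 and 4.94 (-0.41). The T3 and DMSO libraries of these 6 genes did not overlap, which adds little for genes picked by their calls with 2 libraries a group. Each of the 6, and SLC1A4 (-0.82), was lost on leaving out at least 1 of the 4 libraries compared, with edgeR adjusted p of 0.0504 to 0.248. SLC1A4 had 4.67 and 5.20 CPM in DMSO and 2.21 and 3.38 with T3, and went from -0.82 to -0.55 without day 7 T3 replicate 1 (adjusted p = 0.0894). With T4, ATF5 had 19.3 and 20.1 CPM (-0.37), CHAC1 27.3 and 24.2 against 31.0 and 36.4 in DMSO (-0.39), PSPH 29.6 and 29.4 against 36.4 and 37.8 (-0.33) and SLC6A9 4.72 and 4.88 (-0.55). These 4 calls were likewise lost on leaving out 1 library, with edgeR adjusted p up to 0.379 for CHAC1. Leaving out any of the 4 libraries left 4 to 5 of 10 calls for T3 and 2 of 6 for T4, whereas fitting the day 7 libraries on their own gave 17 and 18.

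Between day 7 and day 19 in DMSO the program did not move as a block: 22 members rose and 11 fell, against 37.6% and 34.9% of all tested genes. With limma on log2(FPKM + 0.1) the split was 17 and 13. Among the 11 that fell were ATF4 (-0.66 ± 0.06), CHAC1 (-2.43 ± 0.14), PSAT1 (-1.83 ± 0.08), SLC7A11 (-1.26 ± 0.07), PHGDH (-1.02 ± 0.07) and ASNS (-0.88 ± 0.08), each with an edgeR adjusted p of 1.69e-07 or less. The other 5 that fell were SHMT2 (-0.56), PPP1R15A (-0.49), MTHFD2 (-0.37), DDIT3 (-0.30) and XPOT (-0.19). The calls for DDIT3 and XPOT were lost without day 7 DMSO replicate 2 (adjusted p = 0.21 and 0.112) or day 19 DMSO replicate 2 (0.0715 and 0.409), that for DDIT3 also without day 19 DMSO replicate 1 (0.0985) and that for XPOT also without day 7 DMSO replicate 1 (0.099). Among those that rose were VLDLR (2.91 ± 0.08), CEBPB (2.60 ± 0.10), SLC7A1 (2.25 ± 0.09), ATF3 (2.11 ± 0.10), TRIB3 (1.71 ± 0.16) and PYCR1 (1.67 ± 0.05). Per transcript length, ATF4 was the most abundant member at day 7 in DMSO, at 242 ± 6.52 FPKM (SD, n = 2), followed by PHGDH at 169 ± 0.276 FPKM, and NUPR1 and FGF21 were the scarcest at 0.280 ± 0.0424 and 0.250 ± 0.0566 FPKM. At day 19 with T3 NUPR1 had become the most abundant member, at 332 ± 4.13 FPKM.

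**Figure D4:**
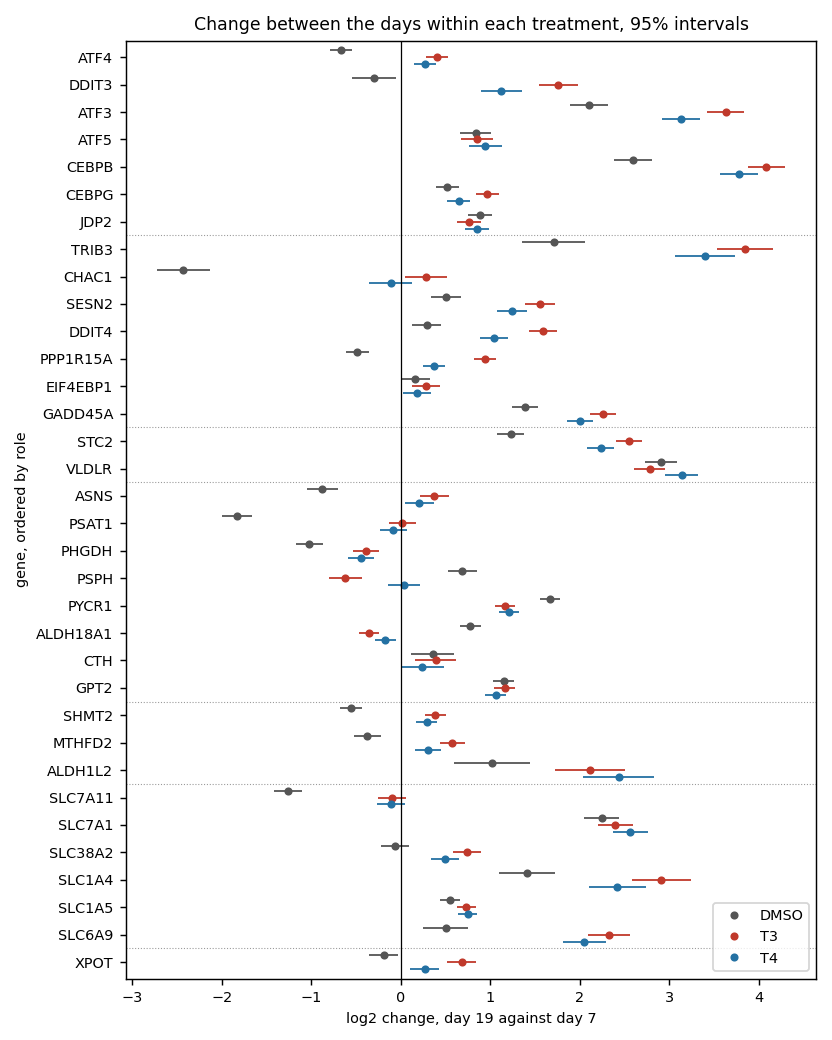
Log2 change from day 7 to day 19 (horizontal axis) with its 95% interval within DMSO (grey), T3 (red) and T4 (blue) for 34 members (vertical axis), leaving out NUPR1, whose day 7 counts are near 0, and FGF21. In DMSO, ATF4, CHAC1, ASNS, PSAT1, SHMT2 and MTHFD2 lie left of 0, and the hormone points of the same genes lie near 0 or right of it.

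Within the hormone libraries the change between days was different from that in DMSO. This comparison was added after the values had been seen. The interaction below is that difference again, the day change with hormone minus the day change in DMSO, and no separate result. The fall of ATF4, CHAC1, ASNS and PSAT1 in DMSO and their rise over DMSO at day 19 rest on the same control libraries. With T3, 30 members rose and 3 fell between the days, against 35.2% and 37.9% of all tested genes, and with T4, 28 rose and 2 fell, against 35.5% and 36.4%. On the FPKM scale the T4 split was 22 and 6. ATF4 was higher at day 19 than at day 7 by 0.40 with T3 and 0.27 with T4, the latter not on the FPKM scale (limma adjusted p = 0.581). PSAT1 had values of 0.02 and -0.08 that did not pass, and PHGDH fell by 0.39 and 0.45.

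Whether the hormone effect differed between the days was tested as an interaction. The T3 effect was higher at day 19 than at day 7 for 24 members and lower for 3, against 17.1% and 20.9% of all tested genes. The T4 effect was higher at day 19 for 23 and lower for 3, against 12.4% and 15.3%. The ATF4 difference was 1.07 for T3 and 0.93 for T4, and that of CHAC1 2.71 and 2.32; the 3 lower ones were PSPH, PYCR1 and ALDH18A1 with either hormone. NUPR1 gave the highest value, 6.84 for T3, but with 0 to 5 counts per library at day 7 in DMSO and T3 it is poorly bounded, and without day 7 T3 replicate 1 it was 10.4. All 27 and 26 calls were kept in every alternative.

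**Figure D5:**
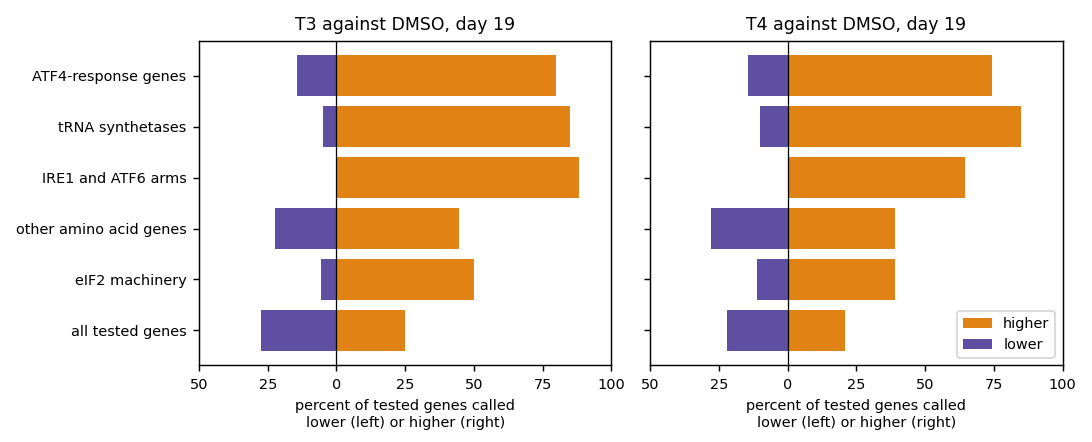
Percent of tested genes called higher (right, orange) or lower (left, purple) than DMSO at day 19 with T3 (left panel) and T4 (right panel), for the ATF4-response genes (35 tested), 4 related lists and all 18101 tested genes. Bars for the ATF4-response genes, tRNA synthetases and the IRE1 and ATF6 arms reach further right than that of all genes.

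Neighbouring arms of the stress response were read from 4 lists of pathway genes, likewise chosen with earlier results of these data known. Over all tested genes, 25.1% were called higher and 27.3% lower with T3 at day 19, and 21% and 21.9% with T4. Of 20 cytosolic aminoacyl-tRNA synthetases, which load tRNAs with amino acids and are often ATF4 targets, 17 were called higher and 1 lower with T3 at day 19 and 17 and 2 with T4. SARS1 rose by 1.37 and 0.92 and WARS1 by 1.12 and 0.83. Of 17 genes of the IRE1 and ATF6 arms, which respond to unfolded protein in the endoplasmic reticulum, 15 were called higher and 0 lower with T3 and 11 and 0 with T4. HERPUD1 rose by 1.85 and 1.38, and HSPA5, the chaperone BiP, by 0.91 and 0.52. At an unadjusted p of at most 0.05 in edgeR, 0 genes of this list were lower with either hormone.

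Of 18 genes for the eIF2 kinases and eIF2 machinery, 9 were called higher and 1 lower with T3 and 7 and 2 with T4. EIF2B2, a subunit of the eIF2 exchange factor, rose by 1.39 and 0.95 and EIF2AK1, the haem-regulated kinase, by 0.82 and 0.39, while DELE1, which relays mitochondrial stress to that kinase, was lower at -0.48 and -0.35. Another list held 18 genes linked to ATF4, mainly of amino acid metabolism and transport. Of these, 8 were called higher and 4 lower with T3 and 7 and 5 with T4. GDF15, a secreted stress hormone rather than an amino acid enzyme or carrier, rose by 3.07 ± 0.08 and 2.16 ± 0.08 (edgeR adjusted p = 1.76e-12 and 7.8e-11). SLC43A1, an amino acid carrier, was lower at -1.99 and -1.19. The lower calls in this list were near the share over all genes, 27.3% with T3 and 21.9% with T4. At day 7 with T3, 5 of 20 synthetases and 6 of 18 other ATF4-linked genes were called higher, beside 9.43% of all tested genes. In the IRE1 and ATF6 arms 3 of 17 genes were called lower, HSPA5 among them at -0.24, beside 6.54%.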

How the data were processed

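Per the submitters' processing notes, reads were handled with HISAT, Bowtie2 and RSEM on hg38. The authors deposited 1 transcript table per library, with expected counts, which are not normalised, and FPKM, which are scaled to transcript length and depth. Only transcripts at 0.01 FPKM or more were listed, as tested on the files. The strand of counting is not given in the sources used here, and 12 members (ATF5, CEBPB, DDIT3, DDIT4, JDP2, MTHFD2, PYCR1, SHMT2, SLC1A5, SLC6A9, SLC7A11 and VLDLR) share exon with a gene on the opposite strand in GENCODE release 29, so their values are less certain. The longest shared stretches were 1324 bases in MTHFD2, 780 in SLC1A5 and 566 in DDIT4. The members and lists were chosen with earlier results of these data known. All 36 members are named, ordered by role, and levels per library are given for those called with the largest changes, up to 4 per role and comparison with DMSO of the same day, and for ATF4, DDIT3, TRIB3 and ASNS.

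Expected counts were summed per Entrez gene and rounded with pandas 2.3.3 in Python 3.11.15; 121 genes without a symbol match held 0.103% to 0.145% of counts. With edgeR 4.0.16 (R 4.3.3), low genes were removed by filterByExpr, libraries scaled by TMM, and changes tested by the quasi-likelihood F test in 1 fit of 12 libraries with 6 residual degrees of freedom (two-sided); the common coefficient of variation was 5.42%. Standard errors are the log2 change over the square root of F. Libraries of a group differed by more than sampling noise, with a chi-square per gene of 1.57 to 2.05 at day 7 and 4.72 to 8.13 at day 19. Alternatives used DESeq2 1.42.0 and limma 3.58.1 on log2(FPKM + 0.1) or log2(FPKM + 1), other scalings and filters, a replicate block, each day alone, and each library left out. Promoters were RefSeq's, matched by Entrez number. The fit was tested on simulated data, where it missed part of the 2-fold and more of the smaller changes at day 7; the recovery asked of it was lowered after the first result.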

Additional observations from a re-analysis of the deposited data

Results flagged for a closer look

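The hormone effect differed between day 7 and day 19 for the members below, by edgeR's interaction test over all tested genes. Each value is the log2 effect at day 19 minus that at day 7, for T3 first and T4 second. Whether the T3 and T4 values differ from each other was not tested; both use the same DMSO libraries.

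Among the transcription factors the effect was higher at day 19 for NUPR1 (6.84 and 4.41), DDIT3 (2.06 and 1.43), ATF3 (1.52 and 1.02), CEBPB (1.49 and 1.18) and ATF4 (1.07 and 0.93), and for CEBPG with T3 alone past the threshold (0.44). Among the stress effectors it was higher for CHAC1 (2.71 and 2.32), TRIB3 (2.14 and 1.69), PPP1R15A (1.43 and 0.86), DDIT4 (1.30 and 0.75), SESN2 (1.06 and 0.74) and GADD45A (0.88 and 0.62), and among secreted proteins for STC2 (1.32 and 1.01). In amino acid synthesis it was higher for PSAT1 (1.85 and 1.75), ASNS (1.25 and 1.08) and PHGDH (0.63 and 0.58) and lower for PSPH (-1.31 and -0.65), ALDH18A1 (-1.13 and -0.95) and PYCR1 (-0.50 and -0.46). The one-carbon enzymes ALDH1L2 (1.10 and 1.42), MTHFD2 (0.95 and 0.68) and SHMT2 (0.94 and 0.85) were higher, as were the transporters SLC6A9 (1.82 and 1.55), SLC1A4 (1.495 and 1.01), SLC7A11 (1.16 and 1.15) and SLC38A2 (0.81 and 0.56) and the tRNA exporter XPOT (0.87 and 0.46). Hepatocyte markers summed to 5154 to 5184 CPM in DMSO at day 7, against 64180 to 67900 CPM at day 19, and the part of that difference in these values was not tested.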

How the results depend on the processing

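The number of members called stayed within 1.5 times at day 19 against DMSO, in the interactions and between the days under each alternative run. At day 7 it did not: DESeq2 called 3 members with T4 instead of 6, and a fit of the day 7 libraries alone called 17 with T3 instead of 10, 18 with T4 instead of 6 and 2 between T4 and T3 instead of 0. Leaving out 1 library gave 4 to 5 calls with T3 and 2 to 2 with T4 at day 7, and 13 to 22 between T4 and T3 at day 19, the lowest without day 19 T3 replicate 1. A fit of the day 19 libraries alone called 30 members with T3 instead of 33, 28 with T4 instead of 31 and 15 between T4 and T3 instead of 21. The main fit used 1 estimate of the spread per gene for both days. Libraries of a group differed less at day 7 (chi-square per gene of 1.57 to 2.05) than at day 19 (4.72 to 8.13). The part of this in the counts was not tested. Over single members, 4853 of 5107 values kept their direction and side of the threshold, 162 lost the call, 74 gained one and 18 reversed. All reversals were limma fits on FPKM between the days, given here with a pseudocount of 0.1 and then 1: in DMSO DDIT4 (-0.114 and -0.1129), EIF4EBP1 (-0.2427 and -0.24) and CTH (-0.0458 and -0.0394); in T3 CHAC1 (-0.0128 and -0.0118), EIF4EBP1 (-0.0036 and -0.0035) and PSAT1 (-0.2695 and -0.2633); in T4 EIF4EBP1 (-0.0696 and -0.0689), ASNS (-0.0486 and -0.0471) and PSPH (-0.2083 and -0.196). FPKM moved the median of all genes between the days by -0.3754 in DMSO, -0.3286 in T3 and -0.2579 in T4, and by 0.1233 for T4 at day 19 (pseudocount 0.1), and changes on that scale are relative to this shift. On it 17 members rose and 13 fell in DMSO, beside 22 and 11, and 22 and 6 in T4, beside 28 and 2.

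The labels do not say that replicate numbers pair the libraries. Correlations of same-numbered deviations over 15 pairs of groups ran from -0.0778 to 0.1246. Only 1 was above 0.1, that between DMSO and T3 at day 19. Low correlations do not exclude pairing. With the replicate number as a block, 10, 5 and 0 members were called at day 7 (T3, T4, T4 against T3), 32, 31 and 21 at day 19, 33 between the days in DMSO, 27 and 27 in the T3 and T4 interactions, and 33 and 30 between the days in T3 and T4. With 2 libraries a group, small differences and genes of a few counts, NUPR1 at day 7 and FGF21 throughout, could not be resolved.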
